A study of Mus musculus with 6 samples.

Results

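The genes described here are the NFAT and calcium entry genes, chosen by symbol: every row of the deposited table named Nfatc1, Nfatc2, Nfatc3, Nfat5, Ppp3ca, Ppp3cb, Ppp3r1, Rcan1, Stim1 or Orai1. Each symbol had 1 row, giving 10 genes of 53278. Type-2 innate lymphoid cells (ILC2s), tissue-resident lymphocytes without antigen receptors that secrete type 2 cytokines, came from visceral adipose tissue of C57BL/6 mice aged 8 weeks. All mice had received 3 intraperitoneal injections of 1 µg recombinant mouse IL-33, the labels name no transgene, and all cells were cultured with IL-2 (10 ng/mL) and IL-7 (10 ng/mL). The DTA-1 group (3 libraries) also received DTA-1 at 5 µg/mL, an agonistic antibody to the costimulatory receptor GITR. The control group (3 libraries) is titled Isotype, and the methods name a rat IgG2b isotype antibody. Its deposited columns are headed PBS-GITR. The labels and methods give 48 h of culture, although the study's text holds 2 culture times, and each library was made from 10 ng of RNA. Cells had been sorted as CD45+, ST2+ and CD117+ and as negative for lineage markers, CD3ε and FcεRI among them. No source says whether the replicates were separate animals or cultures, so p-values measure only the spread between these libraries.

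Calcium entry through the plasma membrane is the step that switches on NFAT in lymphocytes. When calcium stores of the endoplasmic reticulum are emptied, the store sensor STIM1 opens the channel ORAI1, and the rise in calcium activates calcineurin, a phosphatase with a catalytic A and a regulatory B subunit. Calcineurin removes phosphates from NFAT proteins, which then enter the nucleus and, often beside AP-1, bind cytokine genes. RCAN1 is an inhibitor of calcineurin and itself a target of NFAT, whereas NFAT5 responds to osmotic stress and is not a substrate of calcineurin. Much of this control is exerted on protein location and phosphorylation, which RNA does not measure.

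The total count ranged from 30569351 to 35131329 per library, and 3 counts, the limit that a count of 0 allows, equalled 0.0854 to 0.0981 CPM (library-size normalized counts), for counting error only. One library, DTA-1 replicate 1, stood apart from the other DTA-1 libraries. Distance was measured by the chi-square of counts between libraries per degree of freedom. For this library it was 9.652 to 11.31 to isotype control and 27.17 to 28.24 to the other DTA-1 libraries. The distance was 11.38 to 17.05 within isotype control and 11.41 between DTA-1 replicates 2 and 3. From replicates 2 and 3 to isotype control it was 26.45 to 38.03. Results are therefore given with and without DTA-1 replicate 1. The 12 ILC2 markers, with Gata3 and Il1rl1 among them, were detected in both groups and summed to 9346 to 9789 CPM under isotype control against 9795 to 10113 under DTA-1. The mean with DTA-1 was higher for 3 of the 12 markers, with Il2ra from 2111 to 2598 and Id2 from 1787 to 1964 CPM, and lower for the other 9, such as Icos (162 to 118) and Kit (110 to 94.8). Tnfrsf18, which encodes GITR, was at 747, 666 and 740 CPM under isotype control against 712, 756 and 657 under DTA-1. Of 6 mast cell and basophil markers 5 had a higher mean with DTA-1, and the list summed to 11.6 to 16.9 CPM under isotype control against 12.4, 30.7 and 22.2 under DTA-1. T cell markers summed to 40.2 to 53.6 and 45.9 to 50.9 CPM, with Cd8a at 0. Most of that sum was Cd3g, at 36.2 to 48.6 CPM under isotype control and 41.5 to 45.3 under DTA-1. Endothelial markers summed to 18.4 to 24.4 and 10.6 to 18.3 CPM, with Cdh5 at 0. Nearly all of this was Pecam1, at 18.4 to 24.4 and 10.4 to 18.3 CPM. Fibroblast markers summed to 1.8 to 7.68 and 0 to 3.98 CPM. Macrophage, adipocyte, B cell and neutrophil markers summed to at most 4.28 CPM in any library. The part of these cells in the results was not tested.

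All 10 genes passed the filter on low counts, with at least 596 counts in every library, and none was called between DTA-1 and isotype control. Called here means a Benjamini-Hochberg adjusted p under 0.05 by edgeR's quasi-likelihood test over 14361 genes and a change of at least 1.5-fold. Of all genes tested 0% were called (0 of 14361), with 0 by limma-trend and 20 by DESeq2. By edgeR an unadjusted p under 0.05 was reached by 1037 genes (7.22%) and by 0 of the 10. By DESeq2's Wald test, or by edgeR with no filter on low counts, 1 of the 10 reached it. With DTA-1 replicate 1 left out, 111 of 14911 genes (0.744%) were called, 87 higher and 24 lower, again with 0 of the 10, and an adjusted p alone was passed by 253 genes (1.7%) and by 0 of the 10. In this smaller comparison an unadjusted p under 0.05 was reached by 2092 genes (14%) and by 1 of the 10, Orai1.

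**Figure D1:**
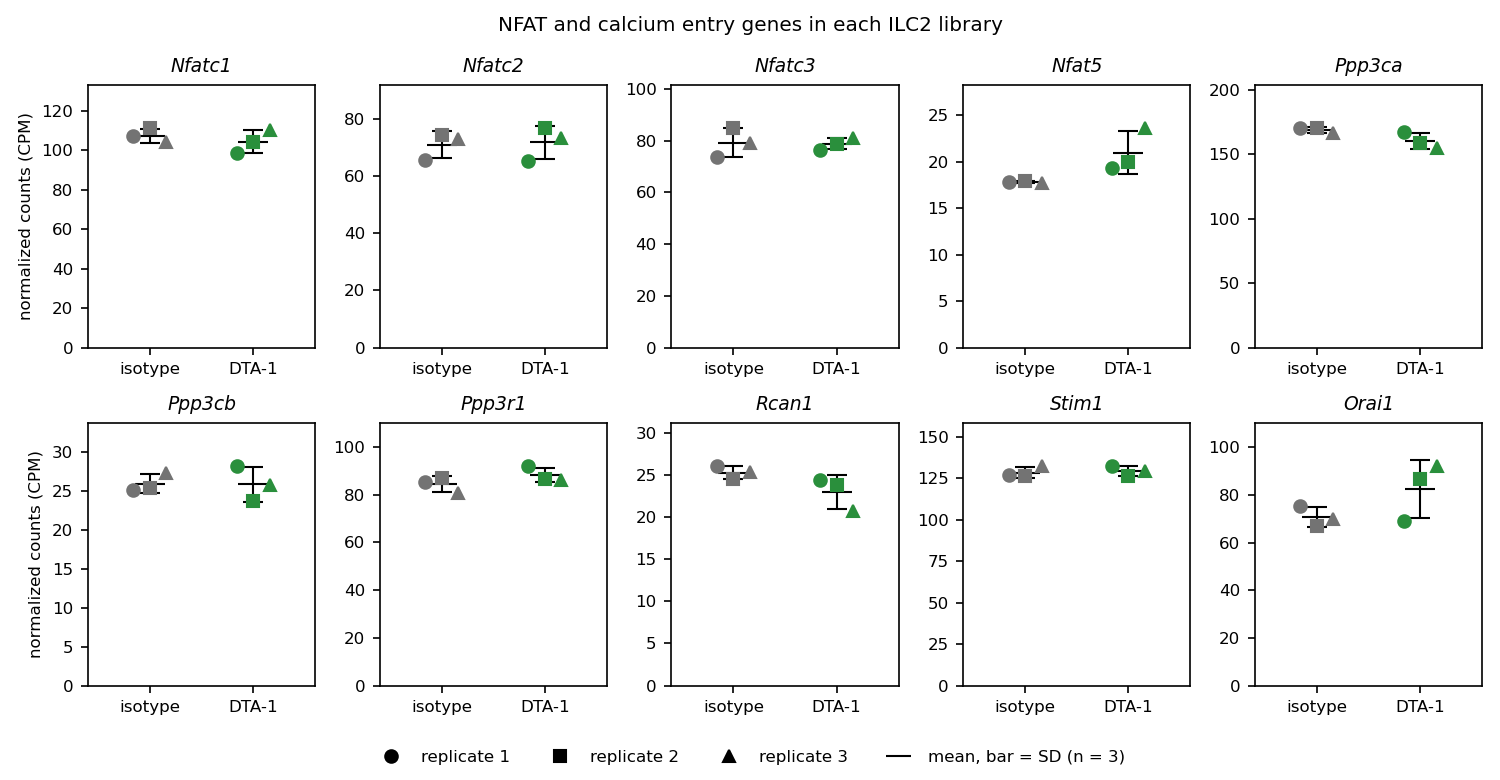
Normalized counts (CPM after TMM scaling, vertical axes from 0) of the 10 genes in each isotype control library (grey) and DTA-1 library (green). Symbols mark the replicate, the horizontal line is the mean and the bar is the SD (n = 3). The groups overlap for 8 genes, while Nfat5 is higher and Rcan1 lower in all 3 DTA-1 libraries.

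The 4 NFAT genes are described first. Nfatc1 (chromosome 18, 80606205 to 80713071, GRCm38, minus strand), whose factor induces its own short isoform in activated lymphocytes, had 107, 111 and 104 normalized counts (CPM after TMM scaling) under isotype control against 98.4, 104 and 110 under DTA-1. The groups overlapped, with DTA-1 replicate 1 lowest. The means were 107 ± 3.44 and 104 ± 5.84 (SD, n = 3 each), and the log2 fold change of DTA-1 over isotype control (log2FC) was −0.04 (SE 0.07, adjusted p = 0.928 by edgeR).

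Nfatc2 (chromosome 2, 168476410 to 168601657, minus strand) encodes the NFAT protein that waits in the cytoplasm of resting lymphocytes. It had 65.7, 74.3 and 73.2 normalized counts under isotype control against 65.5, 76.8 and 73.3 under DTA-1. The 2 sets of values nearly coincided, with replicate 1 the low library in each. The log2FC was 0.02 (SE 0.09, adjusted p = 0.981 by edgeR).

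Nfatc3 (chromosome 8, 106058840 to 106130537, plus strand) is another calcium-regulated family member. Its normalized counts were 73.7, 84.8 and 79.3 under isotype control against 76.6, 78.9 and 81.0 under DTA-1. All DTA-1 values lay within the isotype control range, and the log2FC was −0.01 (SE 0.08, adjusted p = 0.991 by edgeR). With DTA-1 replicate 1 left out, the log2FC values of Nfatc1, Nfatc2 and Nfatc3 were −0.0049, 0.08 and 0.01.

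Nfat5 (chromosome 8, 107293470 to 107379517, plus strand) stood outside this pattern. It had 17.8, 17.9 and 17.7 normalized counts under isotype control against 19.3, 20.0 and 23.6 under DTA-1. Every DTA-1 library was above every isotype control library, and DTA-1 replicate 3 was the highest. The means were 17.8 ± 0.109 and 21 ± 2.31 (SD, n = 3 each), and the log2FC was 0.23 (SE 0.12, unadjusted p = 0.0858, adjusted p = 0.732 by edgeR). Such a separation upward was seen in 755 of 14361 genes (5.26%). With DTA-1 replicate 1 left out, the log2FC was 0.29 (edgeR adjusted p = 0.359), and without DTA-1 replicate 3 it was 0.14, the lowest of all alternatives. The fourth calcium-regulated gene of the family, Nfatc4, had 3 counts in isotype control replicate 1 and 0 in the other 5 libraries, which is at the detection limit.

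Per kilobase of exon, the scale on which genes can be compared, Nfatc1 made up 49.9% ± 1.42 of the summed NFAT level under isotype control against 48.8% ± 0.668 under DTA-1 (SD, n = 3 each). Nfatc2 and Nfatc3 had shares of 23.3% ± 0.928 and 23.4% ± 0.736 in isotype control, but 22% ± 0.847 and 27.9% ± 0.825 per kilobase of the longest transcript, where they did not overlap. The share of Nfat5 was 3.37% ± 0.125 under isotype control against 3.98% ± 0.283 under DTA-1, with no library of one group inside the range of the other (3.49%, 3.24% and 3.37% against 3.89%, 3.75% and 4.3%). As means of DTA-1 replicates 2 and 3 the shares were 48.7% for Nfatc1 and 4.03% for Nfat5. These shares were not tested.

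The calcineurin subunits followed. Ppp3ca (chromosome 3, 136670124 to 136937727, plus strand), which encodes the alpha form of the catalytic subunit, had 170, 170 and 166 normalized counts under isotype control against 167, 159 and 155 under DTA-1. The groups overlapped through DTA-1 replicate 1, and the other 2 DTA-1 libraries were the lowest of the 6. The log2FC was −0.08 (SE 0.06, adjusted p = 0.828 by edgeR) and −0.11 without that library (edgeR adjusted p = 0.476).

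Ppp3cb (chromosome 14, 20499364 to 20546573, minus strand) encodes the beta form. Its normalized counts were 25.2, 25.4 and 27.4 under isotype control against 28.2, 23.7 and 25.8 under DTA-1. The DTA-1 libraries held both the highest and the lowest value, and the log2FC was −0.01 (SE 0.11, adjusted p = 0.995 by edgeR), or −0.07 when DTA-1 replicate 1 was left out.

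Ppp3r1 (chromosome 11, 17159263 to 17200375, plus strand) encodes the regulatory, calcium-binding subunit. It had 85.4, 87.0 and 80.5 normalized counts under isotype control against 91.8, 86.6 and 86.3 under DTA-1, overlapping values with a log2FC of 0.07 (SE 0.07, adjusted p = 0.880 by edgeR), or 0.04 when DTA-1 replicate 1 was left out. Ppp3r1 overlaps Wdr92 on the same strand, which had 5873 counts summed over the libraries against 17205 for Ppp3r1, so its value is uncertain by how reads there were assigned.

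The gamma catalytic gene Ppp3cc had 41.3, 48.7 and 46.3 normalized counts under isotype control against 41.6, 44.3 and 44.6 under DTA-1 (log2FC −0.06, edgeR adjusted p = 0.919), and without DTA-1 replicate 1 its log2FC was −0.03 (edgeR adjusted p = 0.928). Per kilobase of exon Ppp3ca took 48.3% ± 1.96, Ppp3cc 43.3% ± 2.06 and Ppp3cb 8.41% ± 0.439 of the 3 catalytic genes in isotype control. In DTA-1 the same shares were 47.8% ± 1.53, 43.4% ± 2.04 and 8.75% ± 0.708 (SD, n = 3 each), or 47%, 44.6% and 8.4% as means of DTA-1 replicates 2 and 3. Per kilobase of the longest transcript Ppp3ca took 58.7% and Ppp3cc 30.1% in isotype control. The second regulatory gene, Ppp3r2, whose expression is known mainly from testis, had 0 counts in all 6 libraries.

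Rcan1 (chromosome 16, 92391953 to 92466146, minus strand) is the gene of the set for which the sequence before the start bears on NFAT most directly, since NFAT induces a short form of it from an internal start. RefSeq (GRCm38.p6) holds 2 Rcan1 starts, and the 250 bases before each are shown, in the direction of the gene on the minus strand, from chr16:92466170-92466419 for the distal start and from chr16:92400079-92400328 for the internal start. Capitals mark the NFAT core GGAAA on either strand (TTTCC where it lies on the other strand).
Rcan1 distal start: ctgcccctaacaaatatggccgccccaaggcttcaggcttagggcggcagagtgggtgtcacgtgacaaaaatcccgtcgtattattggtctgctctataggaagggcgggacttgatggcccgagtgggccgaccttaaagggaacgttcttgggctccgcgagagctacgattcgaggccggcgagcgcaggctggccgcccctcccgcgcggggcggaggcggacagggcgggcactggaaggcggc
Rcan1 internal start: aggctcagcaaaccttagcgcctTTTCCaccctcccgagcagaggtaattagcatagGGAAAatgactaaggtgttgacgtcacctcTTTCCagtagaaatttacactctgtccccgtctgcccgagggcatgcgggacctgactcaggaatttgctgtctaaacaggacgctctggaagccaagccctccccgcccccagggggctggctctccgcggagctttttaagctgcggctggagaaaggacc
The distal window held 0 matches to the core and 0 to the AP-1 motif TGANTCA. The internal window held 3 core matches and 1 AP-1 match, which did not overlap a core. Of 32851 promoters of this length 55.6% held at least 1 core match, 6.39% held 3 or more, and 6.75% held the AP-1 motif. Of the 10 genes 8 had an entry in this table, with 11 starts, of which 6 held the core. Nfatc2 (one of its starts) and Ppp3cb also had 3 core matches, and Orai1, Stim1 and Ppp3r1 had 0. A match is a description of letters, and the deposited counts per gene do not separate the Rcan1 starts.

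Rcan1 had 26.0, 24.5 and 25.3 normalized counts under isotype control against 24.4, 23.8 and 20.7 under DTA-1. All DTA-1 libraries were below all isotype control libraries, but the gap was narrow, 24.4 against 24.5, and the lowest value came from DTA-1 replicate 3. The means were 25.3 ± 0.741 and 23.0 ± 1.98 (SD, n = 3 each), and the log2FC was −0.14 (SE 0.11, unadjusted p = 0.243, adjusted p = 0.825 by edgeR). A downward separation was seen in 866 of 14361 genes (6.03%). The log2FC was −0.18 when DTA-1 replicate 1 was left out (edgeR adjusted p = 0.558) and −0.07 without DTA-1 replicate 3. Of its relatives, Rcan2 had 0 counts in all 6 libraries, and Rcan3 had 49.3, 48.5 and 48.4 normalized counts under isotype control against 56.8, 51.6 and 41.4 under DTA-1. Rcan3 spread to both sides of isotype control in DTA-1, with a log2FC of 0.03 (edgeR adjusted p = 0.964).

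Stim1 (chromosome 7, 102267806 to 102437319, plus strand), the store sensor, had 127, 126 and 132 normalized counts under isotype control against 132, 126 and 129 under DTA-1. These values covered the same range, and its coefficient of variation, 2.57% under isotype control against 2.12% under DTA-1, was small in both groups. The log2FC was 0.01 (SE 0.06, adjusted p = 0.987 by edgeR), and its 95% confidence interval corresponded to a fold of 0.914 to 1.11. When DTA-1 replicate 1 was left out, the log2FC was −0.01. Stim2, a sensor that responds to smaller losses from the stores, had 72.7, 71.9 and 78.2 normalized counts under isotype control against 74.3, 82.6 and 83.9 under DTA-1 (log2FC 0.11, edgeR adjusted p = 0.789). The groups overlapped through DTA-1 replicate 1, without which the log2FC of Stim2 was 0.16 (edgeR adjusted p = 0.388).

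Orai1 (chromosome 5, 123015074 to 123030456, plus strand), the pore subunit of the channel, had the smallest p of the 10 genes. It had 75.3, 67.2 and 70.1 normalized counts under isotype control against 69.0, 86.8 and 92.0 under DTA-1. DTA-1 replicate 1 lay within the isotype control range, and the other 2 DTA-1 libraries lay above it. The means were 70.8 ± 4.10 and 82.6 ± 12.1 (SD, n = 3 each), and the log2FC was 0.22 (SE 0.11, unadjusted p = 0.0611, adjusted p = 0.702 by edgeR). Without that library it was 0.34 (SE 0.08, unadjusted p = 0.00237, adjusted p = 0.0904 by edgeR), a fold of 1.11 to 1.43 by the 95% confidence interval, which did not pass the test. It was 0.14 without DTA-1 replicate 3. Across all alternatives the edgeR, limma or DESeq2 adjusted p of Orai1 ranged from 0.0904 to 0.999.

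The other channel genes did not follow Orai1. Orai2 had 85.8, 84.4 and 82.3 normalized counts under isotype control against 97.3, 69.9 and 79.8 under DTA-1, with DTA-1 replicate 1 above and the other 2 below isotype control. Its log2FC was −0.03 (edgeR adjusted p = 0.964), or −0.17 without that library and 0.08 without DTA-1 replicate 2. Orai3 had 32.9, 32.8 and 31.7 normalized counts under isotype control against 30, 24.0 and 28.1 under DTA-1. All its DTA-1 values were below isotype control, with a log2FC of −0.24 (unadjusted p = 0.0494, edgeR adjusted p = 0.691) and −0.32 when DTA-1 replicate 1 was left out (edgeR adjusted p = 0.241). It was −0.15 without DTA-1 replicate 2. A downward separation without overlap was seen in 6.03% of all genes tested, and an unadjusted p under 0.05 by edgeR in 7.22%.

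**Figure D2:**
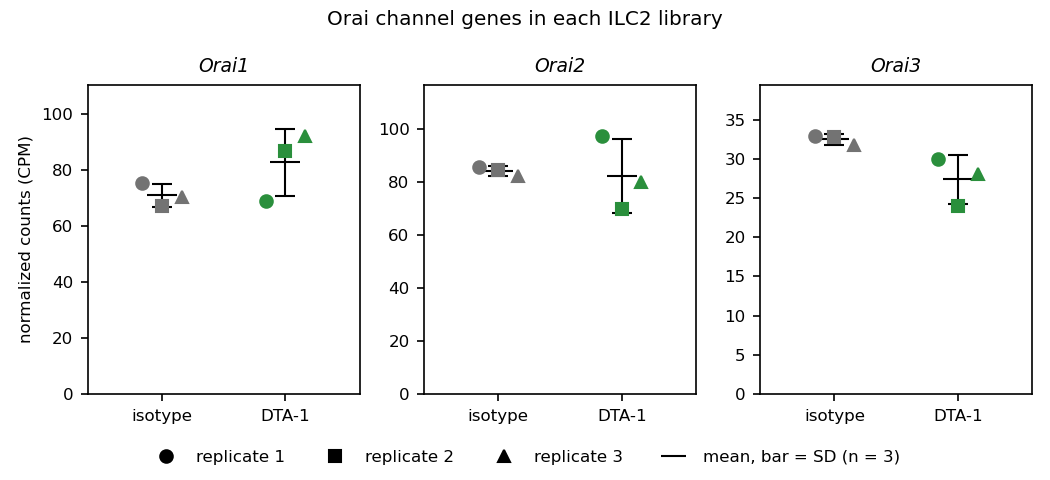
Normalized counts (CPM, vertical axes from 0) of Orai1, Orai2 and Orai3 in each library, with symbols for the replicate, the mean as a horizontal line and the SD as a bar (n = 3). DTA-1 replicates 2 and 3 are above isotype control for Orai1 and below it for Orai2 and Orai3. DTA-1 replicate 1 is within isotype control for Orai1, above it for Orai2 and below it for Orai3.

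Per kilobase of exon Orai1 took 52.7%, 50.1% and 51.9% of the summed level of the 3 channel genes under isotype control against 50%, 62.5% and 60.4% under DTA-1. DTA-1 replicate 1 thus had the lowest share of the 6 and the other 2 DTA-1 libraries the highest. The share of Orai3 was 25.3% ± 0.77 under isotype control against 20.6% ± 2.5 under DTA-1 (SD, n = 3 each), or 19.2% in DTA-1 replicates 2 and 3, and these shares were not tested. The summed mast cell and basophil markers also lay within the isotype control range in DTA-1 replicate 1 and above it in the other 2 DTA-1 libraries. Under DTA-1 most of that sum was Cpa3, at 6.82, 19.4 and 12.8 CPM. Under isotype control Cpa3 had 7.49, 7.30 and 4.37 CPM of sums of 13.8, 16.9 and 11.6. Of the other 5 markers Mcpt8 had the lower mean with DTA-1. Tpsb2 did not have this split, with 4.96 CPM in DTA-1 replicate 3. Neither did Fcer1a, with 2.63 CPM in DTA-1 replicate 2 against 2.85 in isotype control replicate 2. Mcpt4, at 0 in DTA-1 replicate 2, did not have it either. Ms4a2 did, at 0.256 and 0.22 CPM in DTA-1 replicates 2 and 3, from 8 and 7 counts. The part of these cells in the Orai1 values was not tested. In bulk RNA, fewer cells of a type and less RNA per cell cannot be told apart.

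Size limits on the differences were narrow. Of the 10 genes 5 had a higher and 5 a lower value in DTA-1, with a median log2FC of 0.0009 against −0.01 over all genes tested. Their median absolute log2FC was 0.05, against 0.12 over all genes, and the largest was 0.23. These medians were not matched for level, and the median SE was 0.08 for the 10 genes against 0.14 over all genes. With DTA-1 replicate 1 left out, the split was again 5 and 5, the median absolute value 0.08 against 0.17, and the largest 0.34. The 95% confidence interval lay inside 1.5-fold in either direction for all 10 genes, as it did for 8464 of 14361 genes (58.9%), and without that library again for all 10 and for 7855 of 14911 genes (52.7%). Among the 6052 genes with a mean between those of the lowest and highest of the 10 (19.4 to 165 CPM), this held for 96.1%, so narrow intervals are usual at these levels.

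**Figure D3:**
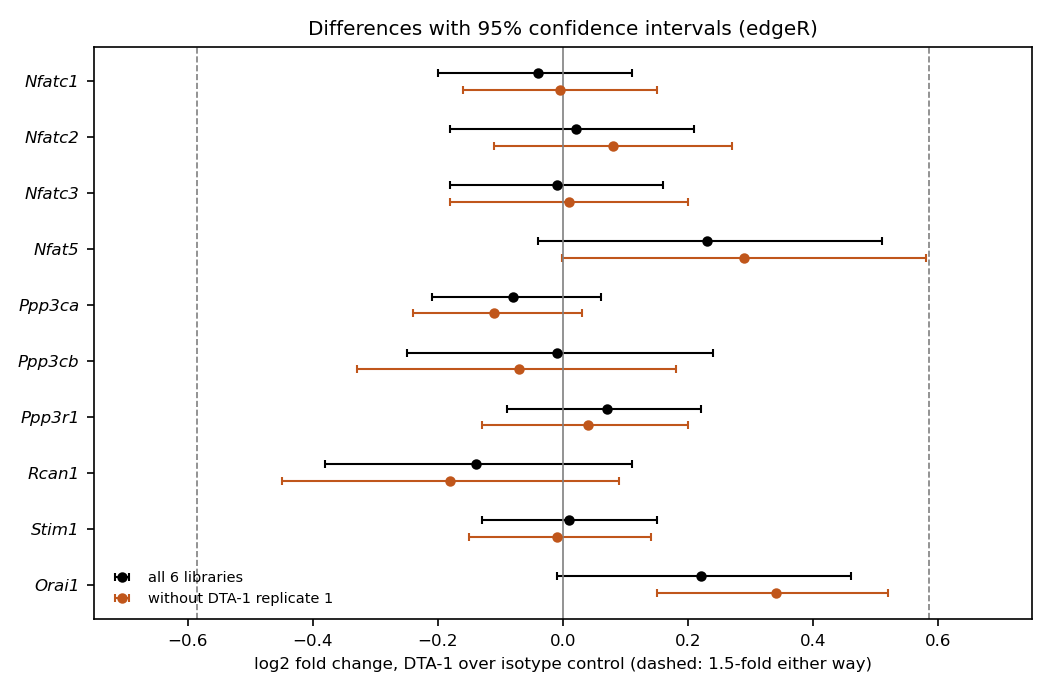
Log2 fold change of DTA-1 over isotype control (horizontal axis) for the 10 genes, with 95% confidence intervals from edgeR, in all 6 libraries (black) and without DTA-1 replicate 1 (orange). Every interval lies between the dashed lines at 1.5-fold, and only that of Orai1 without DTA-1 replicate 1 leaves out 0.

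Compared per kilobase of exon as means of the 6 libraries, Orai1 had the highest level of the 10 genes, 33.4 ± 4.5 CPM per kilobase (SD, n = 6), followed by Ppp3r1 with 26.7 ± 1.12 and Ppp3ca with 16.5 ± 0.647. Nfatc1 followed with 14.2 ± 0.621, Stim1 with 12.4 ± 0.264 and Rcan1 with 7.82 ± 0.595. The ranges over libraries of these neighbours did not overlap. Nfatc2, with 6.76 ± 0.448, overlapped both Rcan1 and Nfatc3 (6.74 ± 0.325), so that the order among these 3 genes was not resolved on this scale. Ppp3cb, with 2.95 ± 0.186, and Nfat5, with 1.06 ± 0.123, were the lowest. Nfat5 has 18378 bases of exon against 2295 for Orai1, and the order depended on the length taken. Without DTA-1 replicate 1 the order of the means was the same, from 34.1 for Orai1 to 1.06 for Nfat5. Per kilobase of the longest transcript Nfatc3 (13.2) was above Nfatc2 (10.5) and Rcan1 (10.4) without overlap. On that scale Ppp3ca (34.6) was above Ppp3r1 (30.2) without overlap. Stim1 (29.5) overlapped Ppp3r1 and was above Nfatc1 (22.1). Orai1 (40.9) and Nfat5 (1.44) kept the ends of the order, but the lowest Orai1 and the highest Ppp3ca values were both 35.8.

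**Figure D4:**
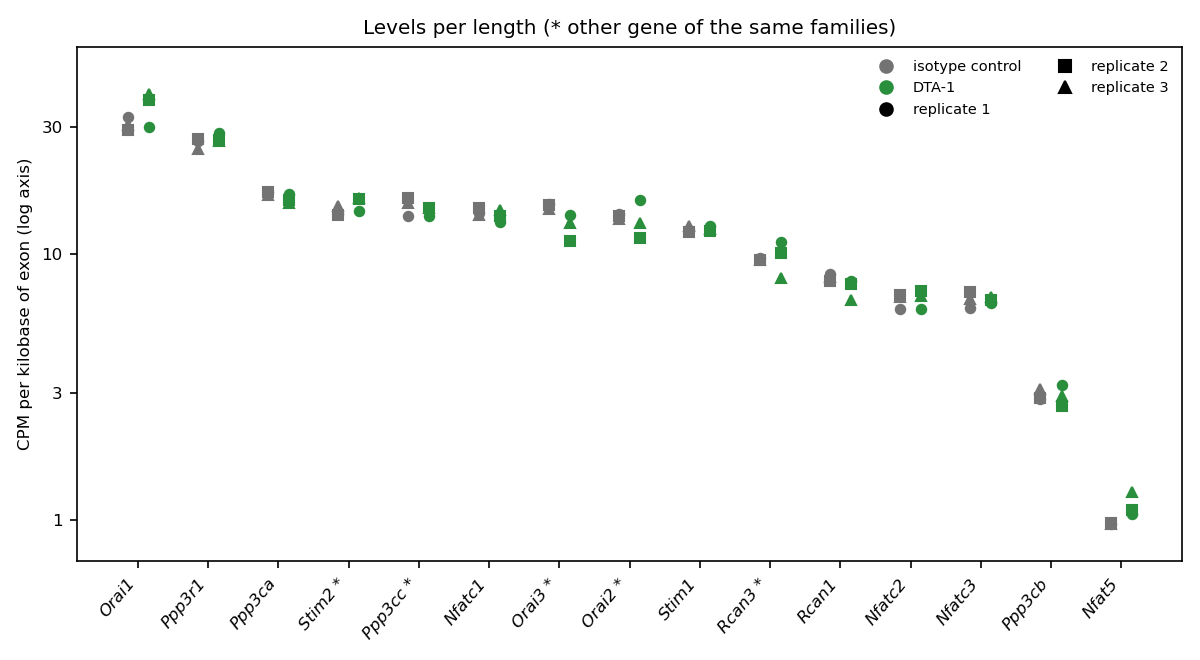
Levels in CPM per kilobase of exon (log axis) of the 10 genes and of the 5 other expressed genes of their families (asterisk), in order of the mean of the 6 libraries, with isotype control in grey and DTA-1 in green and a symbol for each replicate. Orai1 is highest and Nfat5 lowest, and the 6 libraries of a gene lie close together except for Orai1, Orai2, Orai3, Rcan3 and Nfat5.

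The wider pathway was described with 5 lists. Genes named from them were called in either fit or had the smallest p of their list. Of all genes tested 5.26% separated upward without overlap and 6.03% downward, and 7.22% had an unadjusted p under 0.05 by edgeR. Of 14 further NFAT and calcineurin genes 11 were tested, with 7 higher and 4 lower in DTA-1, 0 called and a median log2FC of 0.05 against −0.01 over all genes. The smallest p belonged to Fkbp1a, which encodes the binding protein of the calcineurin inhibitor tacrolimus. Fkbp1a had 366, 371 and 380 normalized counts under isotype control against 394, 457 and 443 under DTA-1, without overlap (log2FC 0.21, edgeR adjusted p = 0.627). When DTA-1 replicate 1 was left out, Fkbp1a passed the adjusted p but not the 1.5-fold limit (log2FC 0.27, edgeR adjusted p = 0.0382). Next was Chp1, a calcineurin B homologue, with a log2FC of 0.11 (edgeR adjusted p = 0.788), or 0.16 without that library (edgeR adjusted p = 0.351). The median of the list was then −0.03, against −0.02 over all genes.

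The 10 genes of kinases that phosphorylate NFAT and return it to the cytoplasm were all tested. All 10 had a log2FC below 0, between −0.47 and −0.02, and 0 were called. A value below 0 was found for 7460 of all 14361 genes tested. The median of the 10 was −0.04, against −0.01 over all genes. When DTA-1 replicate 1 was left out, 3 of the 10 were higher and 7 lower, with a median of −0.04 against −0.02 over all genes. Dyrk2 had 8.76, 10.0 and 9.16 normalized counts under isotype control against 6.37, 7.75 and 5.99 under DTA-1 (log2FC −0.47, unadjusted p = 0.0237, edgeR adjusted p = 0.655). Its groups did not overlap, whereas those of Mapk8, which encodes JNK1, did (log2FC −0.38, edgeR adjusted p = 0.784). Without DTA-1 replicate 1 the log2FC was −0.44 for Dyrk2 and −0.57 for Mapk8 (edgeR adjusted p = 0.362 and 0.4). For Mapk8 it was −0.23 without DTA-1 replicate 3 and −0.24 without isotype control replicate 2.

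Of 23 listed symbols for calcium entry, stores and ion channels 22 were in the table and 21 were tested, with 13 higher, 8 lower and 0 called, and a median of 0.03 in both fits. Atp2a2, the SERCA2 pump that refills the stores, had 553, 646 and 616 normalized counts under isotype control against 656, 720 and 776 under DTA-1. Every DTA-1 library was above isotype control (log2FC 0.25, unadjusted p = 0.0104, edgeR adjusted p = 0.627), and when DTA-1 replicate 1 was left out the adjusted p was 0.0781. Plcg2, a phospholipase that makes the store-releasing messenger, had 35.2, 41.8 and 39.3 normalized counts under isotype control against 40.7, 54.9 and 52.5 under DTA-1. As with Orai1, DTA-1 replicate 1 lay within the isotype control range (log2FC 0.35, edgeR adjusted p = 0.632), and without it the log2FC was 0.47 (edgeR adjusted p = 0.059).

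Of 18 genes known as NFAT targets in lymphocytes 14 were tested, with 8 higher, 6 lower and 0 called and a median of 0.20 against −0.01 over all genes. With DTA-1 replicate 1 left out, the median was 0.12 against −0.02 over all genes, and 3 of 15 were called, against 0.744% of all genes, all higher: Il5, Csf2 and Tnf, which are also targets of other factors such as NF-κB. Il5, the eosinophil growth cytokine, had 5063, 5418 and 5493 normalized counts under isotype control against 5627, 9695 and 8899 under DTA-1 (log2FC 0.60 with 6 libraries and 0.80 without that library, edgeR adjusted p = 0.627 and 0.000115). Csf2, which encodes GM-CSF, had 273, 271 and 279 normalized counts under isotype control against 269, 658 and 546 under DTA-1 (log2FC 0.84 and 1.13, edgeR adjusted p = 0.656 and 0.000115). Tnf was lower in level, with 9.89, 6.67 and 7.34 normalized counts under isotype control against 10.2, 19.8 and 16.2 under DTA-1 (log2FC 0.95 and 1.18, edgeR adjusted p = 0.627 and 0.0187). For all 3 genes the call rested on leaving out the 1 library, which was near the isotype control values. That library was set apart by these same counts, and the list was chosen with earlier results of these data known. The 3 of 15 is therefore no test of the list.

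Of 7 genes induced by NFAT5 under osmotic stress 6 were tested, with 5 higher, 1 lower and 0 called and a median of 0.07. Without DTA-1 replicate 1, 4 were higher and 2 lower, with a median of 0.09. Slc6a6, the taurine transporter, had 109, 117 and 118 normalized counts under isotype control against 119, 124 and 138 under DTA-1. The separation was small (log2FC 0.14, unadjusted p = 0.0846, edgeR adjusted p = 0.732), also without DTA-1 replicate 1 (log2FC 0.19, edgeR adjusted p = 0.305). Slc6a12, a betaine transporter, was low, with 26, 19 and 23 counts under isotype control against 53, 10 and 26 under DTA-1, and its log2FC turned from 0.56 (edgeR adjusted p = 0.875) to −0.18 when DTA-1 replicate 1 was left out.

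**Figure D5:**
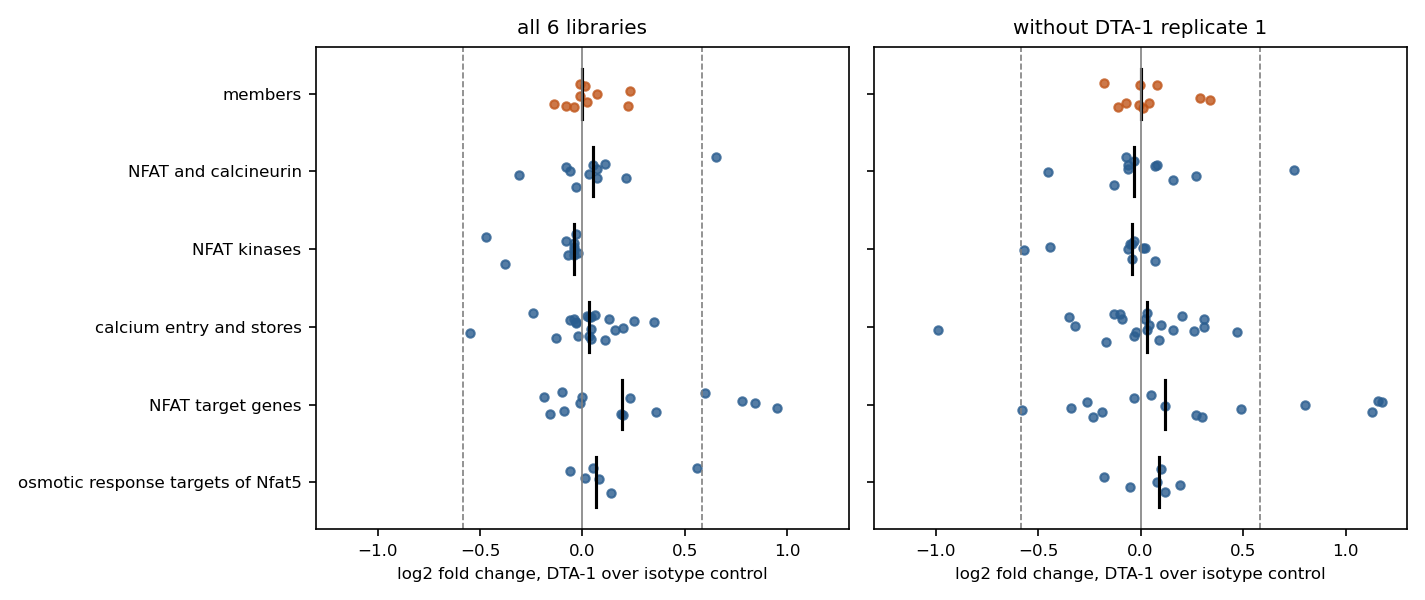
Log2 fold change of DTA-1 over isotype control (horizontal axis) for each tested gene of the 10 described genes (members, orange) and of the 5 wider lists (blue), with all 6 libraries and without DTA-1 replicate 1. Black bars are medians and dashed lines mark 1.5-fold, and the 10 genes lie between −0.14 and 0.23 with all libraries, while Il5, Csf2 and Tnf are among the target genes beyond 1.5-fold in both panels.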

How the data were processed

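RNA of 6 ILC2 libraries, 3 with isotype control and 3 with DTA-1, was sequenced. The authors aligned the reads and quantified genes with Partek software, and the submitters' processing notes name bcl2fastq 2.17.1.14, STAR 2.5.3a, Partek and build mm10. The deposited values are expected counts, estimated reads per gene without normalization, of which 79.5% were whole. The annotation release and strand setting are not given in the sources used here. Gene positions come from the deposited table and exon lengths from GENCODE mouse release 21 (GRCm38), which gave both ends alike for 47669 of the 49618 symbols in common.

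Expected counts were rounded and tested in R 4.3.3 with edgeR 4.0.16 (filterByExpr, TMM, robust quasi-likelihood F test, no covariate). Normalized counts are CPM scaled by TMM. The filter left 14361 genes, and 14911 without DTA-1 replicate 1. Alternatives were DESeq2 1.42.0, limma 3.58.1 (limma-trend, prior count of 2), 2 other scalings, 2 other filters, a replicate block, leaving out each library, and other thresholds. Tables were made in Python 3.11.15. The procedure was tested on simulated data with known changes. An exact permutation test of 3 libraries against 3 cannot go below 0.10, so none was run.

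The members and lists were chosen with earlier results of these data known. All 10 members, their relatives at the same step, and of each wider list the genes called in either fit or else the 2 with the smallest p are named. Genes such as Ppia, Fkbp1a and Calm2 have near-identical pseudogene copies, so their counts are uncertain. No column was left out.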

Additional observations from a re-analysis of the deposited data

How the results depend on the processing

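Of the 10 genes 0 were called and 0 passed the adjusted p under every alternative run: DESeq2's test or size factors, total counts, limma-trend, both other filters, the replicate block and each library left out. Over all genes the number called was 20 by DESeq2's Wald test, 2 with no filter on low counts, 337 by an unadjusted p with the 1.5-fold limit, and 0 to 111 when 1 library was left out, with 111 without DTA-1 replicate 1. Genes of the wider lists called ranged from 0 to 3 when 1 library was left out. Same-numbered libraries did not deviate together (r = 0.0544, −0.0474 and 0.0356 over 9089 genes). Because each group had 3 libraries and DTA-1 replicate 1 stood apart, this cannot tell whether they were paired. The replicate block gave 1 gene called of all and 0 of the 10. Directions of values near 0 turned. With total counts in place of TMM, which moved the median of all genes by −0.037, the log2 fold change was −0.02 for Nfatc2, −0.03 for Stim1 and −0.0005 for Rcan3. When 1 library was left out it ranged from −0.03 to 0.08 for Nfatc2, −0.05 to 0.04 for Nfatc3, −0.07 to 0.06 for Ppp3cb, −0.01 to 0.03 for Stim1, −0.17 to 0.08 for Orai2, −0.07 to 0.15 for Rcan3 and −0.18 to 0.98 for Slc6a12. Other values that moved by over 1.5 times when 1 library was left out kept their sign. They ranged from −0.09 to −0.0049 for Nfatc1, −0.11 to −0.05 for Ppp3ca, 0.03 to 0.09 for Ppp3r1 and −0.12 to −0.01 for Ppp3cc. For Nfat5 the range was 0.14 to 0.29, for Rcan1 −0.18 to −0.07, for Orai1 0.14 to 0.34 and for Orai3 −0.32 to −0.15. For Mapk8 it was −0.57 to −0.23, for Chp1 0.07 to 0.16 and for Slc6a6 0.08 to 0.19. The cause was not tested.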
